A study of Homo sapiens with 12 samples.

Results

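LX-2 cells transfected with siRNA against NAT10 and not given TGF-β1 (SiNAT10, 3 libraries) were compared with LX-2 cells given neither (con, 3 libraries), which are 6 of the 12 RNA sequencing libraries of the series. The members were taken from the sample labels and include every gene with enough counts to be tested, 18560 of 58735. LX-2 is an established human hepatic stellate cell line, so both groups are 1 line, and all libraries came from cells grown with 10% fetal bovine serum. The siRNA was delivered with Lipofectamine 2000. No group with a control siRNA is among the labels, so NAT10 knockdown and transfection acted together, and the sources used here do not give the time between transfection and harvest of the SiNAT10 cells. The other 6 libraries are SiNAT10_TGFB, given 5 ng/ml TGF-β1 for 24 h beginning 48 h after the siRNA, and TGFB, given TGF-β1 alone. Each group's 3 libraries are labelled biological replicates without mention of separate cultures. The spread behind the p-values is therefore that between these samples and may be technical.

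NAT10 is an RNA cytidine acetyltransferase of the nucleolus. It makes N4-acetylcytidine in 18S rRNA, the RNA of the small ribosomal subunit, in tRNA together with its adapter THUMPD1, and in mRNA. It also takes part in the early processing of the rRNA precursor, which RNA polymerase I transcribes from the 45S repeats. Disturbed ribosome assembly is known to let free ribosomal proteins bind MDM2, the ubiquitin ligase of p53, and hepatic stellate cells are the main matrix producers of injured liver.

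Total counts were 26222772 to 27939186 in the SiNAT10 libraries and 29797990 to 33477334 in the con libraries. Levels below are CPM, library-size scaled counts after TMM normalization, a log2 fold change is SiNAT10 over con, and SE is its standard error. Amounts by which a gene rose or fell are log2 fold changes. A gene was called, and is said to have risen or fallen, when its adjusted p in edgeR's quasi-likelihood test was under 0.05. Of the 18560 genes, 4900 rose (26.4%) and 4908 fell (26.4%), and the log2 change reached 1 or more for 1345 risers (7.25%) and 1532 fallers (8.25%). Counts of gene lists are over the members that passed the filter on low counts, to be read beside these 2 shares, and a gene at low counts in 1 group could pass through the other. The 2 groups did not overlap for 10711 genes (57.7%). Over all genes tested, the log2 fold change had a median of 0.02. The first principal component of the 6 libraries held 65.5% of the variance and separated the groups. Over the genes named below as risen or fallen the highest adjusted p in edgeR's test was 7.08e-05, of UTP20, apart from EGR1 (0.0464), STARD4 (0.0373), HIST1H2BJ (0.0249), TRIM5 (0.0111) and DUSP7 (0.00481). Levels of marker genes were summed over each list. The stellate and myofibroblast markers summed to 3621 to 3876 CPM in SiNAT10 and 5594 to 5953 CPM in con. That list had 11 tested members, of which 7 fell, 3 rose (SPARC among them) and 1, ACTA2, was not called. Its sum therefore does not stand for each member. The hepatocyte markers summed to 23.3 to 24.6 CPM in SiNAT10 and 15.3 to 19 CPM in con, with APOA2, CYP3A4, FGB and TTR at 0 counts in all 6 libraries. The immune markers summed to 4.51 to 6.42 CPM in SiNAT10 and 3.30 to 4.07 CPM in con, with CD3E, MARCO and VSIG4 at 0. The cholangiocyte and epithelial markers summed to 76.4 to 85.0 CPM in SiNAT10 and 52.3 to 58.9 CPM in con. The endothelial markers summed to 7.86 to 10.0 CPM in SiNAT10 and 10.7 to 13.0 CPM in con, with CLEC4G at 0. DCN, 1 of the 14 listed stellate markers, was at 0 counts in all 6 libraries.

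NAT10 itself was measured at 19.5, 18.5 and 17.9 CPM in SiNAT10 and 62.9, 68.8 and 69.9 CPM in con, a log2 fold change of −1.85 (SE 0.087). The enzymes around it did not follow it in 1 direction. Of 36 rRNA and tRNA modification enzymes 15 rose and 8 fell. THUMPD1 was at 89.9, 96.8 and 107 CPM in SiNAT10 and 48.2, 43.6 and 39.98 CPM in con, so it rose by 1.15 (SE 0.078). BUD23, the 18S N7-guanosine methyltransferase, rose by 0.8 (SE 0.065), and TRMT112, its stabilizing partner, rose by 0.72 (SE 0.07). MRM1, a methyltransferase of mitochondrial rRNA, fell to 10.1 ± 1.56 CPM in SiNAT10, against 21.4 ± 2.29 CPM in con (SD, n = 3 each).

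Among called genes with a mean of at least 50 counts, the largest increases were those of 2 genes annotated on the ribosomal RNA repeats. FP236383.3 (ENSG00000281181; hg38 chromosome 21, 8437629 to 8438551) is annotated as a long noncoding RNA on the strand opposite to the 18S rRNA gene RNA18SN1 and lies wholly inside it. Since the strand setting of the counting is unknown here, reads of 18S rRNA and of the opposite strand cannot be told apart. It held 25831, 29032 and 13395 counts in the SiNAT10 libraries and 159, 102 and 93 counts in the con libraries, so that every SiNAT10 library was far above every con library. The log2 fold change was 7.77 (SE 0.31). FP236383.2, of the same 923 bases in the repeat copy RNA18SN3, held 3739, 5717 and 3889 counts in SiNAT10 and 7, 4 and 0 counts in con. The transcripts of FP236383.3, FP236383.2 and FP671120.3 have 0 differences among their bases, and FP671120.4 has 106 differences, so the sharing of reads between copies is uncertain and only their sum can be read. The 4 genes summed to 1017, 1242 and 619 CPM in SiNAT10 and 4.82, 3.53 and 2.97 CPM in con, a ratio of the means of 254.2.

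The stretch of RNA18SN1 below is shown because it holds one of the cytidines of 18S rRNA that NAT10 acetylates and lies inside the counted interval. It is the 18S strand of chr21:8438183-8438242 (GENCODE 29 transcript of FP236383.3, reverse complement, hg38), positions 1308 to 1367 of the 1869 bases of 18S when counted from the first base of the RefSeq gene. The capitals mark the CCG whose middle base is position 1337.
RNA18SN1: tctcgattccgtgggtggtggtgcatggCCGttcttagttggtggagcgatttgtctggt
The counts are those assigned to the annotated intervals on the repeats and carry no information on acetylation.

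Other parts of the 45S precursor were higher as well. MIR3648-1, annotated in the 5′ external transcribed spacer of RNA45SN2 (chromosome 21, 8208473 to 8208652), had 419, 495 and 340 counts in SiNAT10 and 20, 12 and 15 counts in con, and rose by 4.91 (SE 0.27). The spacer genes MIR3648-1 and MIR3687-1 summed to 15.5, 18.3 and 13.4 CPM in SiNAT10 and 0.581, 0.433 and 0.469 CPM in con. The copies of 5.8S rRNA summed to 14.1, 14.9 and 11.1 CPM in SiNAT10 and 0.465, 0.567 and 0.344 CPM in con.

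Further RNAs that mostly lack a long poly(A) tail moved the same way, whereas the mitochondrial mRNAs did not. MT-RNR2, the mitochondrial 16S rRNA, was at 2382, 2409 and 2626 CPM in SiNAT10 and 694, 625 and 658 CPM in con and rose by 1.91 (SE 0.052). MT-RNR1, the 12S rRNA, rose by 1.59 (SE 0.075). Of 62 small nucleolar RNA genes tested, 23 rose (37.1%) and 0 fell at edgeR's adjusted p, with a median of 0.87. The 3 genes of 7SL RNA, of the signal recognition particle, summed to 831, 511 and 252 CPM in SiNAT10 and 101.3, 189.9 and 204 CPM in con, so the spread within SiNAT10 was wide, and under TGF-β1 they summed to 318, 233 and 278 CPM in SiNAT10_TGFB and 257, 226 and 726 CPM in TGFB. The 13 mitochondrially encoded mRNAs summed to 20140 ± 510 CPM in SiNAT10 and 20600 ± 265 CPM in con (SD, n = 3 each). Among them MT-ND1 and MT-CO3 rose and 5 fell, with MT-CYB the lowest at −0.53 (SE 0.046). The sources used here do not say how mRNA was enriched, and the part that enrichment or RNA quality has in these differences was not tested. The 18S sums also separated the other pair of groups, at 927, 1261 and 1366 CPM in SiNAT10_TGFB and 5.03, 5.53 and 13.2 CPM in TGFB.

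**Figure D1:**
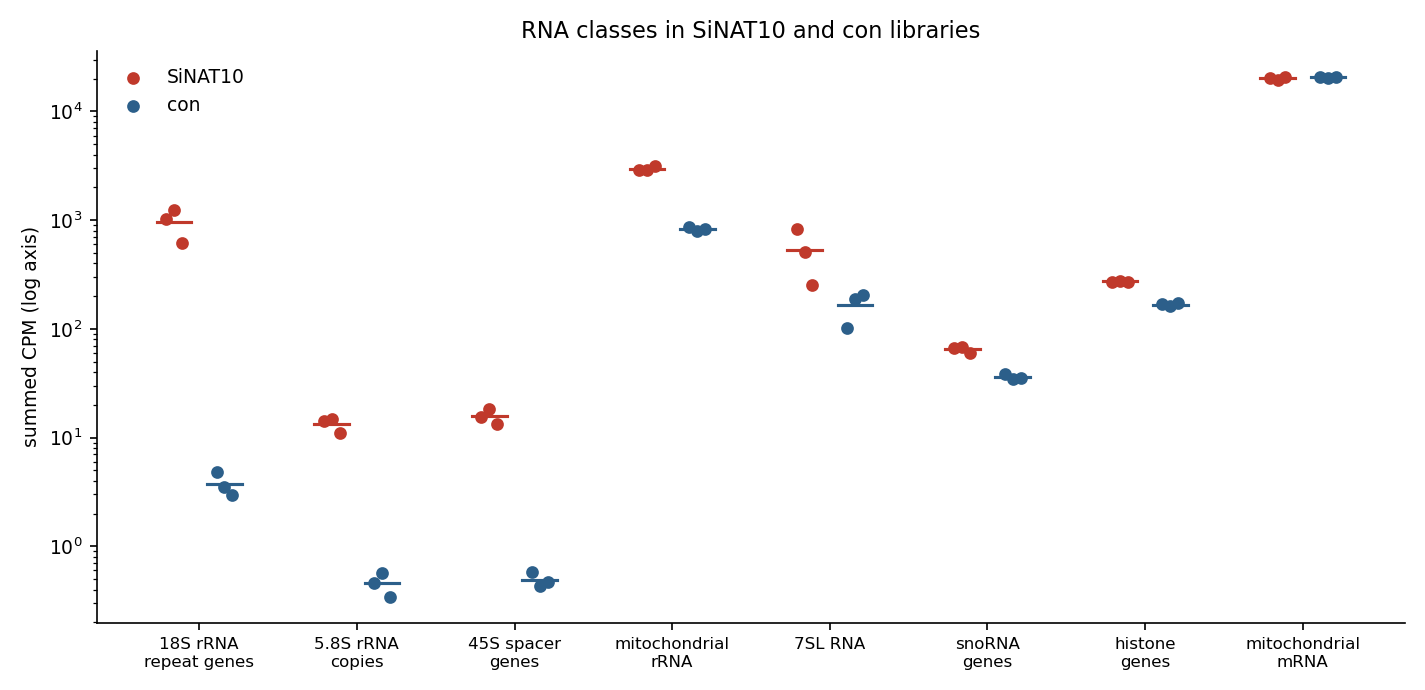
Summed CPM of RNA classes per library on a log axis, with SiNAT10 (red) left of con (blue) in each class; a point is 1 library and a line the mean of 3. The 18S repeat genes lie between 619 and 1242 CPM in SiNAT10 and between 2.97 and 4.82 CPM in con, while the mitochondrial mRNAs average 20140 CPM in SiNAT10 and 20600 CPM in con.

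Replication-dependent histone genes, whose mRNAs end in a stem-loop in place of a poly(A) tail, were largely higher. Of 56 listed, 42 were tested and 26 rose, with a median of 1.06 beside 0.02 for all genes. On the log2(FPKM + 1) scale, which shrinks the change of low genes, the median of the list was 0.53. HIST1H3H was at 10.4, 7.998 and 8.66 CPM in SiNAT10 and 1.68, 2.17 and 2.94 CPM in con and rose by 2.00 (SE 0.18). HIST2H2BE, whose transcript can also be polyadenylated, rose by 1.66 (SE 0.11), and HIST1H1E, a linker histone gene, by 3.1 (SE 0.33). HIST1H2AC was at 22.1 ± 2.40 CPM in SiNAT10 and 21.7 ± 3.27 CPM in con (SD, n = 3 each), and its groups overlapped. HIST1H2BJ was the 1 gene that fell, at −0.38 (SE 0.14), and its groups overlapped. Its adjusted p in edgeR's test was 0.114 without con replicate 1, 0.0764 without con replicate 3, 0.0826 without SiNAT10 replicate 2 and 0.0803 without SiNAT10 replicate 3. The histone genes moved with the other tail-less RNAs above, and the part of that in their counts was not tested.

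The mRNAs of ribosome production were mostly higher by small amounts. Of 81 cytosolic ribosomal protein genes 61 rose and 3 fell, with a median of 0.31. RPLP1, of the large subunit stalk, was at 909, 791 and 826 CPM in SiNAT10 and 489.9, 539 and 556 CPM in con and rose by 0.67 (SE 0.078), and RPSA, of the small subunit, rose by 0.46 (SE 0.06). RPL22L1, the paralog of RPL22, fell by 0.88 (SE 0.11), to 19.7 ± 3.36 CPM in SiNAT10, against 36.1 ± 3.43 CPM in con (SD, n = 3 each). RPL3 was at 810.4 ± 43.4 CPM in SiNAT10 and 841 ± 51.6 CPM in con. Ribosomal protein genes have many processed pseudogene copies, so the counts of single members are less certain.

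Assembly factors were more often higher than lower. Of the 52 small subunit processome and 40S assembly genes tested, 33 rose and 4 fell. Of 17 late 40S factors 14 rose, with a median of 0.49, and of 12 members of the early UTP-A and UTP-B complexes 5 rose and 2 fell, with a median of 0.13. UTP3, of the processome, was at 107, 101 and 98.4 CPM in SiNAT10 and 44.1, 37.3 and 41.7 CPM in con and rose by 1.31 (SE 0.069). RIOK3, a late 40S kinase, rose by 0.95 (SE 0.071). The UTP-A member HEATR1 fell by 0.56 (SE 0.066) and the scaffold UTP20 fell by 0.33 (SE 0.061). Of 46 large subunit assembly genes 24 rose and 7 fell, with ZNF622, a cytoplasmic 60S maturation factor, at 1.22 (SE 0.062) and RSL1D1, a nucleolar ribosomal L1 domain protein, at 0.77 (SE 0.078).

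RNA polymerase I and nucleolar genes changed in both directions, with more risers than fallers. The list of 27 genes held 12 risers and 7 fallers, and its 8 polymerase I subunits held 5 risers and 1 faller. With the GC trend described below removed, 8 of the 27 rose, while over all genes 5358 rose in place of 4900. Without 1 library each, 9 to 11 of the 27 rose. RRN3, the initiation factor that carries the polymerase to the promoter, rose by 0.86 (SE 0.065) and the shared subunit gene POLR1D rose by 0.83 (SE 0.064), whereas POLR1A, the largest subunit, fell by 0.52 (SE 0.065) and TCOF1, the nucleolar factor treacle, fell by 0.47 (SE 0.055). The abundant nucleolar proteins NCL and NPM1 had log2 fold changes of 0.02 (SE 0.054) and 0.07 (SE 0.066), with overlapping groups.

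Targets of p53 were mostly higher. Of 37 tested, 28 rose and 7 fell, with a median of 0.67. CDKN1A, the cyclin-dependent kinase inhibitor p21, was at 250.3, 252 and 246 CPM in SiNAT10 and 73.0, 70.3 and 77.0 CPM in con, a rise of 1.76 (SE 0.062). MDM2 was at 86.7, 99.3 and 106 CPM in SiNAT10 and 58.5, 51.7 and 49.1 CPM in con and rose by 0.87 (SE 0.079). Neither gene had overlapping groups. Among the apoptosis targets, PMAIP1, which encodes NOXA, rose by 1.33 (SE 0.083). GDF15, a stress cytokine, rose by 3.99 (SE 0.27), to 7.28 ± 0.406 CPM in SiNAT10, against 0.446 ± 0.224 CPM in con (SD, n = 3 each), and SESN2, a stress-induced inhibitor of mTORC1, rose by 1.22 (SE 0.099). PLK2 fell by 0.57 (SE 0.05) and the tetraspanin gene CD82 fell by 0.93 (SE 0.072). GDF15, SESN2 and PMAIP1 are also induced through other stress pathways.

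Genes of mitosis fell almost throughout, while S phase genes divided. Of 45 mitosis and G2/M genes 41 fell and 0 rose at edgeR's adjusted p, with a median of −0.8; the 4 others had negative log2 fold changes, down to −0.15. CCNA2, cyclin A2, was at 36.6, 36.6 and 44.2 CPM in SiNAT10 and 189, 188 and 177 CPM in con and fell by 2.24 (SE 0.072). PLK1, the polo-like mitotic kinase, was at 50.6, 45.5 and 43.3 CPM in SiNAT10 and 144, 158 and 163 CPM in con and fell by 1.74 (SE 0.077). The mitotic kinesin gene KIF20A fell by 1.61 (SE 0.059), the cyclin gene CCNB1 by 1.11 (SE 0.057) and the proliferation antigen gene MKI67 by 1.15 (SE 0.056). In these bulk libraries, fewer cells in mitosis and less RNA per cell cannot be told apart.

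Of 50 DNA replication genes 19 fell and 12 rose, shares of 38% and 24%. The helicase component GINS1 fell by 1.53 (SE 0.076) and the DNA ligase gene LIG1 by 0.95 (SE 0.07). PCNA, the sliding clamp, was at 319 ± 8.22 CPM in SiNAT10 and 324 ± 7.10 CPM in con (SD, n = 3 each), and MCM4 of the replicative helicase had a log2 fold change of −0.03 (SE 0.049). DTL, a substrate adapter of the CUL4 ubiquitin ligase, rose by 0.84 (SE 0.065). Of the G1 regulators, CCND1, cyclin D1, rose by 0.54 (SE 0.051), and the inhibitor gene CDKN2C fell by 0.78 (SE 0.068).

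**Figure D2:**
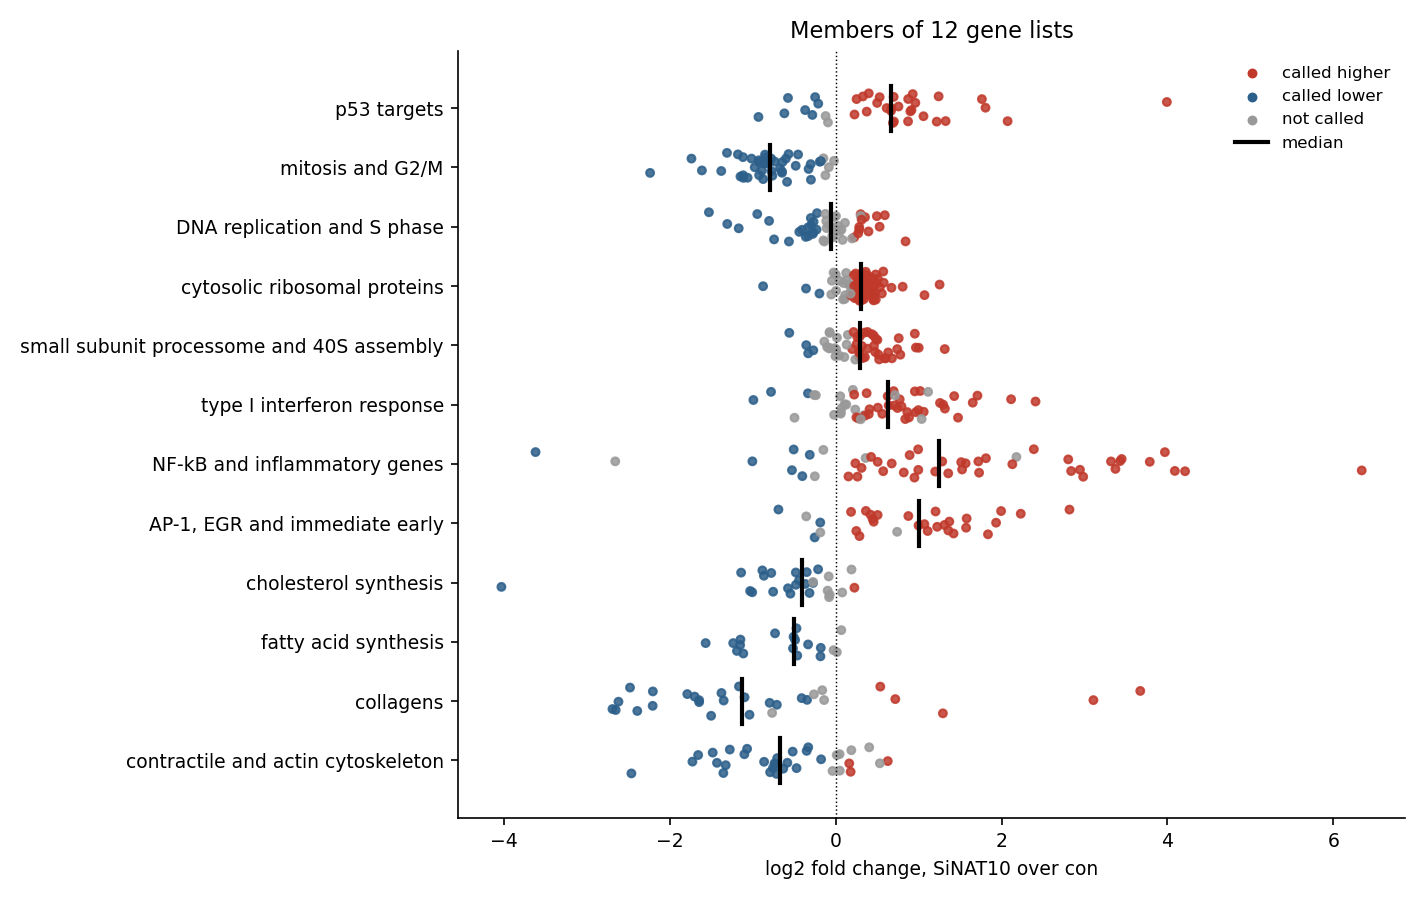
Log2 fold change, SiNAT10 over con, of each tested member of 12 gene lists, coloured by call (red higher, blue lower, grey not called), with the list median as a black bar. All 45 mitosis genes lie left of 0 and their median is at −0.8, while the inflammatory list reaches 6.34 and the collagens spread to both sides.

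Interferon response genes were mostly higher. Of 53 type I interferon response genes 33 rose and 3 fell, with a median of 0.63 (0.31 on the log2(FPKM + 1) scale). IFIT2, an antiviral RNA-binding protein, was at 274, 282 and 303 CPM in SiNAT10 and 65.6, 66.2 and 66.5 CPM in con and rose by 2.12 (SE 0.064). RSAD2, the antiviral enzyme viperin, was at 53.5, 61.4 and 59.6 CPM in SiNAT10 and 10.7, 11.1 and 10.96 CPM in con and rose by 2.41 (SE 0.091). ISG15, a ubiquitin-like modifier, rose by 1.65 (SE 0.076), IFIT3 by 1.43 (SE 0.068) and OASL by 1.26 (SE 0.079). GBP1, a guanylate-binding protein gene, fell by 0.78 (SE 0.075), PARP10, an ADP-ribosyltransferase gene, fell by 0.99 (SE 0.14), and TRIM5, which encodes a capsid-binding restriction factor, fell by 0.33 (SE 0.11) and had an adjusted p of 0.0538 in edgeR's test without con replicate 3. TRIM25, a ubiquitin ligase of the pathway, was at 169.9 ± 5.00 CPM in SiNAT10 and 158 ± 3.98 CPM in con (SD, n = 3 each), which was not called.

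Of the 30 tested genes for double-stranded RNA sensing and interferon ligands, 13 rose and 6 fell. The RNA helicase sensors DDX58, known as RIG-I, and IFIH1, known as MDA5, rose by 1.25 (SE 0.099) and 1.13 (SE 0.12). Their adaptor gene MAVS fell to 228, 234 and 223 CPM in SiNAT10, against 407, 409 and 398 CPM in con, by 0.83 (SE 0.056), and the transcription factor gene IRF3 fell by 0.79 (SE 0.093). Transfected siRNA is itself double-stranded, and without a control siRNA its part cannot be told apart from that of NAT10. The class I antigen genes B2M and HLA-B rose by 0.81 (SE 0.059) and 0.69 (SE 0.052), and HLA-B shares much sequence with its paralogs.

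Inflammatory genes were mostly higher. Of the 48 genes tested in this NF-kB-linked list 37 rose and 6 fell, with a median of 1.24 (0.66 on the log2(FPKM + 1) scale). CSF3, granulocyte colony-stimulating factor, was at 68.0, 62.6 and 60.1 CPM in SiNAT10 and 0.436, 0.867 and 1.06 CPM in con, a rise of 6.34 (SE 0.2). IL1B was at 837, 787 and 886 CPM in SiNAT10 and 81.4, 82.4 and 87.4 CPM in con and rose by 3.32 (SE 0.064), and IL1A rose by 4.09 (SE 0.12). The neutrophil chemokine genes CXCL8 and CXCL5 rose by 2.98 (SE 0.12) and 2.95 (SE 0.11), and the cytokine gene IL6 by 1.73 (SE 0.098). Complement C3 rose by 3.37 (SE 0.12) and SOD2, the mitochondrial superoxide dismutase, by 2.39 (SE 0.092). CXCL12, a homeostatic chemokine of mesenchymal cells, went the other way, at 2.06, 3.32 and 3.83 CPM in SiNAT10 and 39.6, 33.9 and 39.4 CPM in con, a log2 fold change of −3.62 (SE 0.13). LIF was at 26.9 ± 2.92 CPM in SiNAT10 and 29.8 ± 1.40 CPM in con (SD, n = 3 each), with overlapping groups.

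Immediate early genes and the phosphatases that restrain MAP kinases were higher too. Of 31 genes 25 rose and 3 fell, with a median of 1.00. DUSP6, the ERK phosphatase, was at 94.5, 105 and 104 CPM in SiNAT10 and 14.4, 15.5 and 13.2 CPM in con and rose by 2.82 (SE 0.083). DUSP5 and DUSP1 rose by 2.23 (SE 0.10) and 1.84 (SE 0.069), whereas the AP-1 member FOSL2 fell by 0.69 (SE 0.057) and the phosphatase gene DUSP7 by 0.25 (SE 0.072). With the GC trend described below removed, DUSP7 stood at 0.12 and was not called (adjusted p = 0.0941 in edgeR's test). The transcription factor EGR1 fell by 0.19 (SE 0.077) with overlapping groups. It lost its call in 16 of 20 alternatives. Its log2 fold change with the GC trend removed was −0.0074 (adjusted p = 0.938 in edgeR's test), and its adjusted p was 0.136 without SiNAT10 replicate 3, 0.12 without con replicate 1 and 0.241 without con replicate 3.

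Of 29 BCL2 family and caspase genes 19 rose and 6 fell. The inflammatory caspase gene CASP4 rose by 2.33 (SE 0.076), to 142 ± 8.45 CPM in SiNAT10, against 28.2 ± 2.59 CPM in con (SD, n = 3 each). The antiapoptotic genes BCL2A1 and MCL1 rose by 2.29 (SE 0.11) and 0.85 (SE 0.057), and APAF1, the apoptosome scaffold, fell by 1.02 (SE 0.088).

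Upstream sequences of genes from 3 of these lists are shown, for each list those of the called members of largest change that had a match to the motif usual for the list wholly before the start. The promoter windows, 250 bases before to 50 bases after a start, are RefSeq's on GRCh38.p14. To 1 or more of them 11535 of the 18560 tested genes were matched, by Ensembl gene or, failing that, by symbol. Motifs were read on both strands, and overlapping matches of 1 motif are all in capitals below, and matches of different motifs were counted independently of each other, also where they overlap. Each line gives 60 bases around such a match, 5′ to 3′ on the gene's strand, with capitals for GAAANNGAA (interferon-stimulated element), GGANTTTCC (NF-kB) or TTTGAA (cell cycle homology region).
RSAD2: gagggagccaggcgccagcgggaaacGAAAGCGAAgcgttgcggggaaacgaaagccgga
ISG20: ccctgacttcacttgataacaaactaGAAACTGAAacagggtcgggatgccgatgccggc
ISG15: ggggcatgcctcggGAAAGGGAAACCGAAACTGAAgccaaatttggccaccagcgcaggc
CXCL8: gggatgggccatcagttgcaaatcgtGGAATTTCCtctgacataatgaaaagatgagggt
CXCL5: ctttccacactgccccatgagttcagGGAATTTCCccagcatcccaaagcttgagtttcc
CXCL3: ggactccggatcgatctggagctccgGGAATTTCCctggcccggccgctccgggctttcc
PLK1: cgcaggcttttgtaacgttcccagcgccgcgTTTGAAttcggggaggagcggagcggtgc
CDC20: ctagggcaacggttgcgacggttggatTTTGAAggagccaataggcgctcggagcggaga
CDCA8: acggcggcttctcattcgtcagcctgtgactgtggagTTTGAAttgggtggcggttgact
The stretches lie at chr2:6865780-6865839 for RSAD2, chr15:88638921-88638980 for ISG20, chr1:1013370-1013429 for ISG15, chr4:73740452-73740511 for CXCL8, chr4:73998734-73998793 for CXCL5, chr4:74038734-74038793 for CXCL3, chr16:23678829-23678888 for PLK1, chr1:43358889-43358948 for CDC20 and chr1:37692456-37692515 for CDCA8. CXCL5 and CXCL3 are on the minus strand and the others on the plus strand.

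GAAANNGAA was found in at least 1 promoter of 30 of the 42 interferon response genes with a promoter (71.4%, Wilson 95% interval 56.4 to 82.8%) and of 8.89% of all 11535 genes. GGANTTTCC was found for 17 of 37 inflammatory genes (45.95%, interval 31.0 to 61.6%) and 2.31% of all, and TTTGAA for 27 of 39 mitosis genes (69.2%, interval 53.6 to 81.4%) and 13.7% of all. Among the 606 genes with a promoter that rose by at least 1, 14.03% held the AP-1 motif TGANTCA, 11.9% the interferon-stimulated element, 5.94% the amino acid response element TGATGNAA and 5.78% the NF-kB motif. Over all genes the shares were 7.43% for the AP-1 motif and 2.83% for the amino acid response element. TTTGAA was in 16.7% of these 606 risers (interval 13.9 to 19.8%) and in 12.1% of the 943 genes that fell by at least 1 (interval 10.2 to 14.3%). The AP-1 motif was found for 2 of 26 immediate early genes (7.69%, interval 2.14 to 24.1%), the antioxidant element for 7 of 22 NRF2 and ferroptosis genes (31.8%), the amino acid response element for 9 of 29 ATF4 genes (31.0%) and CACGTG for 8 of 32 lysosome and autophagy genes (25%). The E-box CACGTG was in 12.4% of the risers and 12.3% of all genes, and the antioxidant element TGACNNNGC in 19.1% of both. Base composition was not accounted for in any of these shares, and its part in them was not tested. Members of a list were taken whether called or not, so a list share describes the list and not the siRNA response. Over all 3523 genes with a promoter that fell, TTTGAA was found for 13.3%. A match is a string of letters, not a bound site, and genes with several starts had several windows.

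Stress response genes under ATF4, the transcription factor of the amino acid response, did not move together. Of 10 transcription factor and feedback genes 9 rose, with a median of 0.92, whereas of 10 amino acid transporter genes 3 rose and 6 fell. DDIT3, which encodes CHOP, rose by 1.86 (SE 0.10), ATF3 by 1.57 (SE 0.076) and PPP1R15A, the eIF2α phosphatase subunit GADD34, by 1.48 (SE 0.061). SLC3A2, the heavy chain that pairs with several amino acid transporters, was at 882, 815 and 755 CPM in SiNAT10 and 248, 258 and 269 CPM in con and rose by 1.66 (SE 0.061). SLC7A5, its light chain partner for large neutral amino acids, was at 39.4, 33.9 and 28.0 CPM in SiNAT10 and 193, 219.5 and 204 CPM in con and fell by 2.61 (SE 0.091). The groups did not overlap for either chain of this transporter. Of 20 cytosolic aminoacyl-tRNA synthetase genes 12 rose, led by SARS at 0.65 (SE 0.059), whereas VARS fell by 0.81 (SE 0.086) and QARS by 0.51 (SE 0.061).

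Autophagy genes were mostly higher. Of 17 autophagy genes 15 rose and 1 fell, while of 25 lysosome genes 12 rose and 7 fell. SQSTM1, the autophagy receptor p62, was at 698, 681 and 629 CPM in SiNAT10 and 166, 183 and 178 CPM in con and rose by 1.93 (SE 0.061). MAP1LC3B, the autophagosome marker LC3B, rose by 0.91 (SE 0.07), and LAMP1, a lysosomal membrane protein, fell by 0.8 (SE 0.06). Of 18 NRF2 target genes 12 rose and 1 fell. HMOX1, heme oxygenase 1, rose by 1.78 (SE 0.092), and the ferritin genes FTL and FTH1 by 1.32 (SE 0.054) and 1.37 (SE 0.086).

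Lipid synthesis genes were lower. Of the 18 genes tested for making fatty acids 15 fell and 0 rose at edgeR's adjusted p, with a median of −0.5. FASN, fatty acid synthase, was at 187, 159.7 and 131 CPM in SiNAT10 and 416, 511 and 493 CPM in con and fell by 1.57 (SE 0.11). SCD, stearoyl-CoA desaturase, fell by 1.11 (SE 0.064), and SREBF1, the transcription factor of the pathway, by 1.24 (SE 0.11). Of 26 cholesterol synthesis genes 18 fell and 1 rose, with a median of −0.4. The synthase gene HMGCS1 was at 55.5, 63.6 and 67.1 CPM in SiNAT10 and 130.0, 117 and 127 CPM in con and fell by 1.01 (SE 0.07). The 1 riser, the sterol carrier STARD4, rose by 0.23 (SE 0.089) and had overlapping groups. Its adjusted p in edgeR's test was 0.473 with the GC trend removed, 0.295 without SiNAT10 replicate 3, 0.224 without con replicate 2 and 0.0707 without con replicate 3.

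Energy metabolism genes were mostly higher. Of 72 nuclear oxidative phosphorylation genes 46 rose and 6 fell, with a median of 0.3, among them SDHB of complex II at 0.83 (SE 0.087) and NDUFB11 of complex I at 0.8 (SE 0.077). Of 32 glycolysis and hypoxia genes 21 rose and 8 fell. ANGPTL4, a lipoprotein lipase inhibitor, was at 61.6, 49.8 and 42.6 CPM in SiNAT10 and 3.37, 4.70 and 5.87 CPM in con and rose by 3.47 (SE 0.14). The angiogenic factor gene VEGFA rose by 1.3 (SE 0.076), and the muscle phosphofructokinase gene PFKM fell by 0.9 (SE 0.068).

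Matrix genes of this stellate line fell outside type I and III collagen as well. Of 30 collagen genes tested 21 fell and 5 rose, and of 34 contractile genes 24 fell and 3 rose. COL7A1, of anchoring fibrils, was at 23.1, 25.6 and 21.3 CPM in SiNAT10 and 143, 143 and 154 CPM in con and fell by 2.65 (SE 0.091), and the network-forming COL8A1 fell by 2.48 (SE 0.10). THBS2, thrombospondin 2, was at 122, 129 and 126 CPM in SiNAT10 and 614, 710.2 and 680.3 CPM in con and fell by 2.41 (SE 0.069), and VCAN, versican, fell by 1.55 (SE 0.097). Of the 10 fibrillar collagen genes tested 9 fell and 1 rose, the riser by 3.67. The opposite direction was also seen for the epithelial COL17A1 at 1.29 (SE 0.12), the laminin chain LAMA4 at 1.77 (SE 0.089) and SPARC at 0.73 (SE 0.05). Smooth muscle ACTG2 fell by 2.46 (SE 0.094), nonmuscle myosin MYH9 by 1.28 (SE 0.054) and filamin A, FLNA, by 1.43 (SE 0.071). MYL12A, a myosin light chain, rose by 0.63 (SE 0.063). ACTA2, of the stellate and myofibroblast markers, was not called.

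Matrix proteases were higher in part. Of 24 protease and inhibitor genes 12 rose and 4 fell. MMP1, interstitial collagenase, was at 617, 586 and 678 CPM in SiNAT10 and 59.5, 57.9 and 60.4 CPM in con and rose by 3.4 (SE 0.071). MMP3, stromelysin, rose by 5.04 (SE 0.4), to 6.58 ± 0.423 CPM in SiNAT10, against 0.190 ± 0.168 CPM in con (SD, n = 3 each). The protease inhibitor genes SERPINB2 and TFPI2 rose by 2.81 (SE 0.079) and 2.99 (SE 0.088).

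Genes of the TGF-β family fell more often than they rose, whereas its receptor genes divided evenly. Of 42 ligand, receptor and SMAD genes 21 fell and 7 rose. The 14 ligand and latent binding genes held 8 fallers and 1 riser, and the 10 receptor genes held 3 fallers and 3 risers. TGFB2 was at 7.58, 8.57 and 11.5 CPM in SiNAT10 and 81.7, 74.8 and 72.9 CPM in con and fell by 3.05 (SE 0.12), while the receptor gene TGFBR2 rose by 1.34 (SE 0.055) and INHBA, an activin chain, by 0.94 (SE 0.066). Of its 18 SMAD, feedback and target genes 10 fell and 3 rose. Among those named, log2 fold changes were −1.5 (SE 0.097) for ID1, −2.84 (SE 0.2) for the inhibitory SMAD6 and −4.65 (SE 0.31) for ATOH8, a helix-loop-helix factor. PDGFRB, the receptor for the stellate cell mitogen PDGF-BB, was at 6.55, 6.32 and 7.91 CPM in SiNAT10 and 29.3, 27.8 and 29.8 CPM in con and fell by 2.07 (SE 0.13). ITGA2, the collagen-binding integrin chain, rose by 2.14 (SE 0.085).

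**Figure D3:**
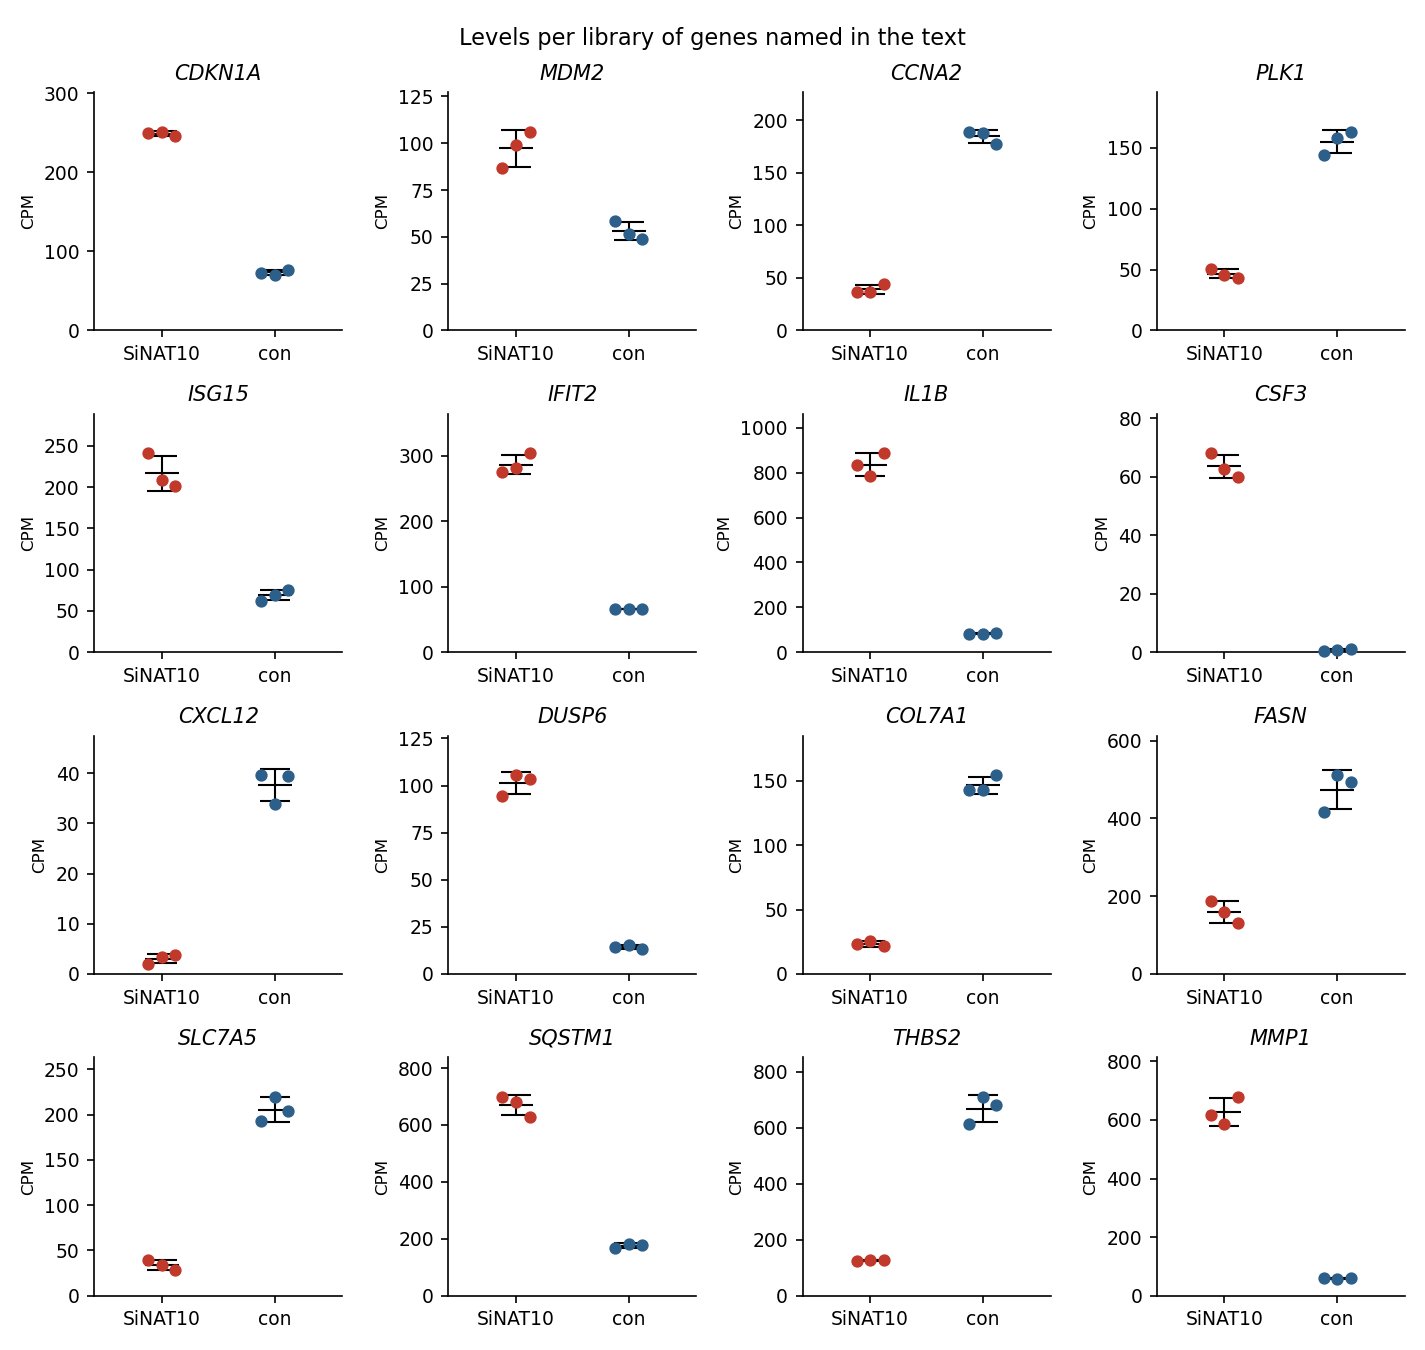
CPM per library of 16 genes named in the text, SiNAT10 (red) left of con (blue), with the mean and SD of 3 libraries in black; each panel starts at 0. No panel shows overlap between the groups, and CSF3 and IL1B are high while CCNA2, CXCL12 and COL7A1 are low in SiNAT10.

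Among well-counted genes outside the lists, the epithelial transcription factor gene EHF rose by 6.31 (SE 0.49), TMEM156 by 4.9 (SE 0.22) and TNFSF8, the CD30 ligand, by 4.71 (SE 0.32). EHF had 5.28 ± 0.737 CPM in SiNAT10 and 0.0625 ± 0.108 CPM in con (SD, n = 3 each), where 3 counts correspond to 0.0871 to 0.107 CPM, so the con libraries were near the limit of detection. CCDC74A stood at −3.38 (SE 0.16) and the zinc transporter gene SLC39A6 at −2.92 (SE 0.10), with 15.5, 16.5 and 20.98 CPM in SiNAT10 and 133, 138 and 130.2 CPM in con.

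**Figure D4:**
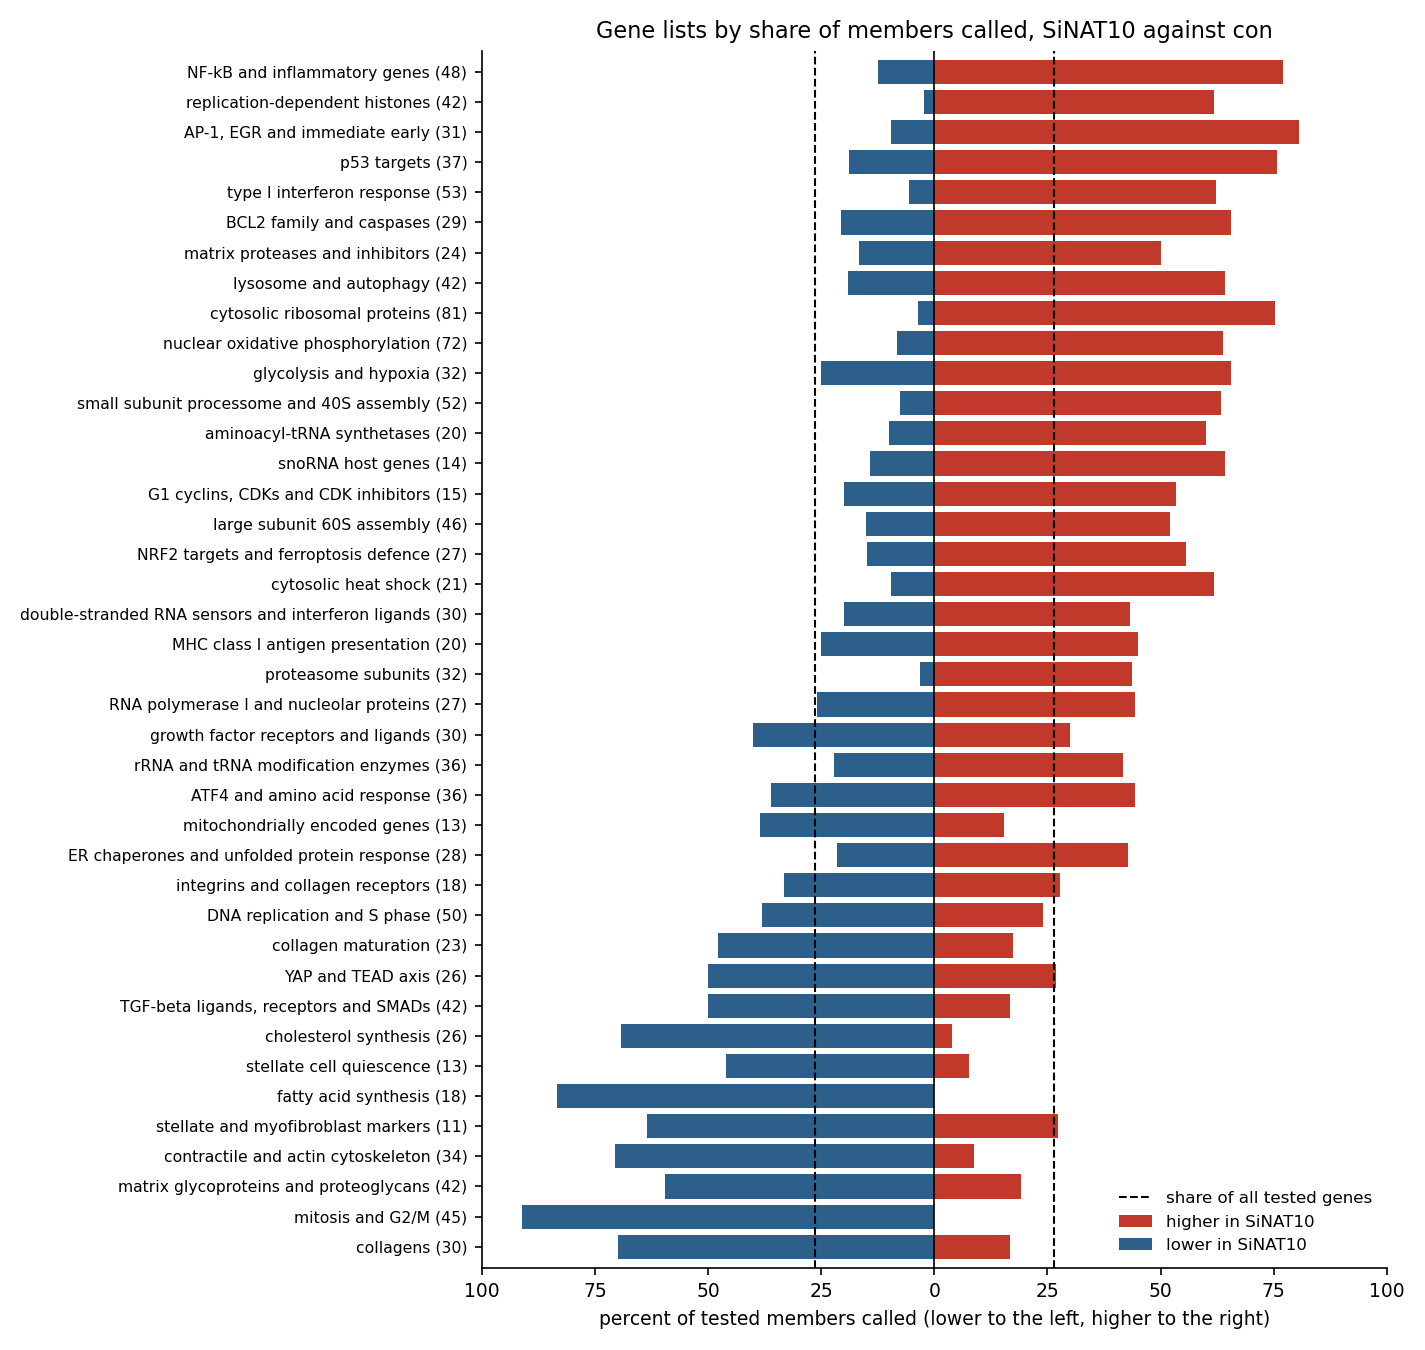
Percent of tested members called higher (red, right) or lower (blue, left) in SiNAT10 for every gene list with at least 10 tested members, ordered by median log2 fold change with the number tested in brackets; dashed lines mark the 26.4% of all genes that rose and the 26.4% that fell. Mitosis, fatty acid and cholesterol synthesis extend far past the line on the left, and ribosomal proteins, inflammatory and immediate early genes past the line on the right.

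The log2 fold change also varied with the base composition of transcripts. Among genes with a mean of at least 50 counts, 457 of 1063 with up to 38% GC rose (43.0%) and 17.2% fell, whereas of 1118 genes over 62% GC 107 rose (9.57%) and 729 fell (65.2%). The Spearman correlation of log2 fold change with GC across 13022 genes was −0.33, a description in which genes are not independent replicates. Merged exon length had a weaker relation, with −0.14 across 13026 genes. The collagens had a median GC of 57.4% and the mitosis genes one of 44.4%. With a smooth GC trend removed from each library, 8244 of the 9808 genes were called again in the same direction, and in each list recomputed the count of members called in its prevailing direction stayed within 1.5 times its value. What sets the GC trend was not tested.

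**Figure D5:**
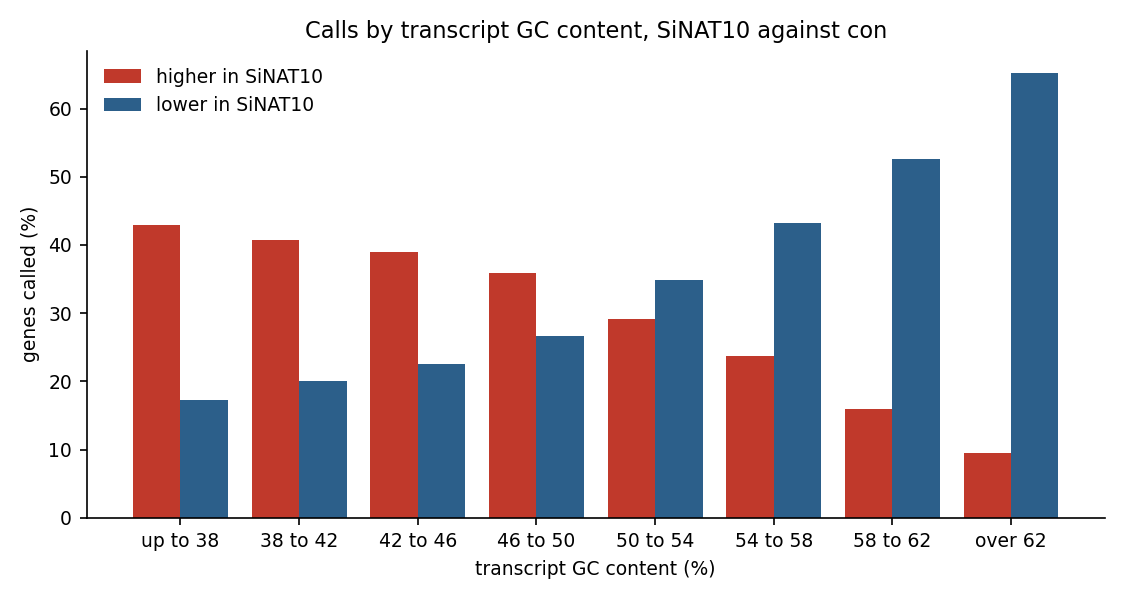
Percent of genes with a mean of at least 50 counts that were called higher (red) or lower (blue) in SiNAT10, by transcript GC content. The share higher falls to 9.57% and the share lower reaches 65.2% in the class over 62% GC.

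The siRNA response without TGF-β1 was set against the siRNA response under TGF-β1 by the difference of the 2 comparisons, which use separate libraries. That difference was called for 714 of 18560 genes (3.85%), 354 with a higher and 360 with a lower log2 fold change without TGF-β1. With the GC trend removed, 704 were higher and 665 lower, and with library size scaling 290 were higher and 641 lower. In the fit with TMM scaling it was called for 0 of 45 mitosis genes, 0 of 81 ribosomal protein genes and 2 of 37 p53 targets in edgeR's test. It was called for 17 of 53 interferon response genes, whose median was 0.63 without TGF-β1 and 0.83 with it, and for 13 of 31 immediate early genes, with medians of 1.00 and 0.64. In the interferon list OASL rose by 1.26 without and 2.23 with TGF-β1. SERPINB2 rose by 2.81 without and 4.73 with it. IL6 had a log2 fold change of 1.73 without TGF-β1 and −0.19 with it. LIF had −0.15 without TGF-β1 and −1.84 with it.

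Some values are less certain because exons overlap a gene on the other strand, whose reads cannot be separated here. The share of exon bases so covered was 62.4% for FTH1, 44.9% for NDUFB11, 40.5% for DUSP6, 31.6% for DDIT3, 23.2% for HEATR1, 22.0% for SQSTM1 and 20.7% for IL6. On the same strand TGFB2 shares 26.6% and SERPINB2 19.9% of its exon bases with a neighbouring gene.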

How the data were processed

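RNA of 12 LX-2 libraries in 4 groups of 3 was sequenced, and the SiNAT10 and con libraries are described here. Gene counts and FPKM for 58735 genes were deposited by the authors. The submitters' processing notes name fastp, HISAT2 2.2.1 and the build hg38. For the counting tool, strand setting, mRNA selection and rRNA depletion nothing is given in the sources used here. Gene positions matched GENCODE 29 for every gene.

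The tests used the deposited counts, with edgeR 4.0.16 under R 4.3.3. Genes were filtered with filterByExpr at its defaults, scaled by TMM, and fitted by quasi-likelihood with 4 group means over 12 libraries, which share 1 estimate of the spread. P-values were adjusted by Benjamini-Hochberg over the 18560 genes of each contrast. SE is the absolute log2 fold change divided by the square root of F. The scripts were tested on simulated data. FPKM values deposited by the authors were used only in alternatives, on the log2(FPKM + pseudocount) scale with limma 3.58.1; DESeq2 1.42.0, other scalings, filters, a GC correction, a replicate block and leaving out each library were further alternatives. Depth limits a value to 0.0871 to 0.107 CPM per 3 counts, and intervals cover counting error only.

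The comparison, the gene lists and the markers were chosen with earlier results of these data known, and the lists come from general knowledge. Genes were named by a rule: NAT10, the 12 largest changes in each direction among called genes with a mean of at least 50 counts, in each list up to 6 called members of smallest p in the main direction, 3 in the other and 3 not called, and the 6 largest differences between the siRNA comparisons in each direction. Not all genes that the rule allows are printed. Of those largest differences between the siRNA comparisons only SERPINB2 is named. IL6, CXCL8, MT-RNR1, MT-RNR2 and the genes of the rRNA repeats and promoter stretches outside this rule were named after their values were seen. Replicate numbers did not pair the libraries.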

Additional observations from a re-analysis of the deposited data

Results flagged for a closer look

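The siRNA response without TGF-β1 differed from that under TGF-β1 for 33 of 140 tested genes named in the text, by edgeR's quasi-likelihood test of the difference with Benjamini-Hochberg adjustment over all genes. Over all 18560 genes the difference was called for 3.85%. The named genes were picked partly by p, by size of change or by this difference itself. Their share therefore cannot be compared with that of all genes. The values are log2 fold changes of SiNAT10 against con minus those of SiNAT10_TGFB against TGFB, so a negative value means a higher log2 fold change under TGF-β1. Among interferon and sensing genes the difference was called for IFIT2 (−0.67), RSAD2 (−0.64), ISG15 (−0.37), IFIT3 (−0.75), OASL (−0.97), TRIM25 (−0.65) and MAVS (−0.28). Among inflammatory and cell death genes the difference was called for IL1B (−0.31), CXCL5 (−0.65), CXCL8 (−0.78), IL6 (1.92), LIF (1.70) and CASP4 (−0.47). Among immediate early, growth and stress genes the difference was called for DUSP6 (0.60), DUSP1 (1.09), FOSL2 (−0.39), EGR1 (0.69), CCND1 (0.49), PPP1R15A (−0.60), HMOX1 (−0.68), SLC3A2 (0.33), SLC7A5 (0.44), ANGPTL4 (1.13) and VEGFA (0.57). Among matrix and TGF-β family genes the difference was called for COL8A1 (−0.71), THBS2 (−0.37), SPARC (0.81), MMP1 (0.40), SERPINB2 (−1.92), ID1 (0.59) and INHBA (1.03). Of the mitochondrial rRNAs both differed, namely MT-RNR1 (0.39) and MT-RNR2 (0.45). The largest absolute difference among these genes was that of IL6 (SE 0.13), followed by SERPINB2 (SE 0.12) and LIF (SE 0.13). Some calls were close to the threshold. The adjusted p in edgeR's test was 0.0499 for SLC7A5, 0.0498 for ISG15, 0.0417 for MAVS and 0.0387 for IL1B. Differences of single genes were not recomputed under the alternatives below. Groups of 3 libraries were not tested for single libraries far from the others.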

How the results depend on the processing

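For the 139 genes recomputed under 20 alternatives there were 2775 values. Of them 2737 stayed on their side of the threshold, with the same direction where the gene had been called. A call was lost in 30 (EGR1, STARD4, HIST1H2BJ, TRIM5) and gained in 6 (RPL3, PCNA, TRIM25). RPL3 gained its calls as higher, at 0.14 with the GC trend removed, although its mean CPM was lower in SiNAT10. DUSP7 reversed to 0.12 both with the GC trend removed and with that plus the replicate block. NAT10 ranged over −1.90 to −1.82 without 1 library each. Genes called ranged over 4296 to 4764 higher and 4444 to 4789 lower, and those called by at least 1 over 1269 to 1378 higher and 1420 to 1621 lower. The differences of the siRNA comparisons ranged over 280 to 506 higher and 258 to 464 lower.

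On FPKM with a pseudocount of 1, which shrinks low genes, 346 genes rose and 456 fell by at least 1, and the motif matches of risers by at least 1 numbered 25 for the interferon-stimulated element, 16 for NF-kB, 27 for AP-1 and 14 for the amino acid response element, in place of 72, 35, 85 and 36. List medians moved there to 0.53 (histones), 0.31 (interferon), 0.66 (inflammatory), 0.18 (matrix proteases), −0.35 (collagens) and −0.40 (matrix glycoproteins). With protein-coding genes alone, an alternative added after seeing the data, 763 rose by at least 1. With the GC trend removed, 402 genes over 62% GC fell (397 with the replicate block too), in place of 729, and the differences of the siRNA comparisons numbered 704 higher and 665 lower (628 and 593 with the replicate block). With library size scaling 290 differences were higher and 641 lower, so 31.2% were higher in place of 49.6%. That scaling leaves out the TMM factors, which were 1.044 to 1.069 in SiNAT10 and 1.008 to 1.029 in con. In SiNAT10_TGFB they were 1.007 to 1.019, and in TGFB 0.922 to 0.927. What sets these factors was not tested. Library size scaling also gave 5517 risers and 4440 fallers, 55.4% higher, and the median of all genes was 0.07.

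Same-numbered SiNAT10 and con libraries had deviations correlated at −0.34, 0.0266 and −0.134, so the numbers are not used as pairs. The replicate block gave 4692 risers and 4767 fallers. A fit of the 6 SiNAT10 and con libraries alone gives no difference of the siRNA comparisons.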

Other observations

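Protein quality control genes were more often higher than lower in SiNAT10 cells. Of 21 cytosolic heat shock genes 13 rose and 2 fell, with a median log2 fold change of 0.23, and of 32 proteasome subunit genes 14 rose and 1 fell, with a median of 0.15. Of 13 genes for signalling and degradation at the endoplasmic reticulum 8 rose and 1 fell, whereas of its 15 chaperone genes 4 rose and 5 fell. Of 20 genes for class I antigen presentation 9 rose and 5 fell. Of 14 snoRNA host genes 9 rose and 2 fell, with a median of 0.26.

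Of 42 matrix glycoprotein and proteoglycan genes 8 rose and 25 fell, with a median of −0.76 (−0.40 on the log2(FPKM + 1) scale), and of 23 collagen maturation genes 4 rose and 11 fell. Of 15 growth factor receptor genes 2 rose and 9 fell, while of 15 growth factor ligand genes 7 rose and 3 fell. Of 26 genes of the YAP and TEAD axis 7 rose and 13 fell. Of 18 integrin and collagen receptor genes 5 rose and 6 fell, and of 13 genes of stellate cell quiescence 1 rose and 6 fell. Over all genes tested 26.4% rose and 26.4% fell. Differences between these lists were not tested.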
